A study of Saccharomyces cerevisiae and Saccharomyces mikatae and Saccharomyces paradoxus with 13 samples.

Results

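The pheromone response of Saccharomyces mikatae was compared with that of S. paradoxus, both close relatives of the budding yeast S. cerevisiae. Of the 6132 ORFs on the array, 4090 (66.7%) had a value on at least 2 arrays of each species, and these were compared. The S. mikatae cells were a-type haploids derived from IFO 1815, with 4 arrays, and the S. paradoxus cells were a-type haploids derived from CBS432, with 3 arrays. Cells of both species grew to log phase in YPD at 30 °C, were given 6 µM alpha factor for 60 min, and were set on each array against untreated cells of the same species. Replicates were biological according to the series text, and each species was represented by a single strain. The probes were those of S. cerevisiae, so mismatch between probe and RNA could differ between the species and was not measured. In the same fit were 3 arrays of S. cerevisiae BY4741 under the same treatment and 3 arrays of S. cerevisiae BY4741 (a-type) and BY4742 (alpha-type) cells mixed on a filter for 90 min without added alpha factor.

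A cell of either mating type secretes a peptide pheromone that cells of the other type sense. In a cells alpha factor binds the receptor Ste2, which releases the G protein beta-gamma pair and activates a mitogen-activated protein kinase cascade that ends at the transcription factor Ste12. Cells then stop in G1, grow a mating projection, make adhesins and fusion proteins, and fuse their membranes and nuclei with a partner. Desensitizing proteins such as Bar1, Sst2 and Msg5 limit the signal. These roles are known from S. cerevisiae.

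All levels below are log2 ratios of alpha-factor-treated over untreated cells, as means ± SD with n = 4 for S. mikatae and n = 3 for S. paradoxus unless fewer values are listed. A difference is the S. mikatae mean minus the S. paradoxus mean, given with its standard error (SE), and an ORF was called at a limma adjusted p under 0.05 over the 4090 ORFs. The labels conflict on the dye of the treated cells, so the direction of treated over untreated is likely rather than certain, and with the sign turned every rise would be a fall. The S. mikatae arrays had 4253 to 4304 values and the S. paradoxus arrays 4367 to 4777. Arrays of S. mikatae correlated with each other at 0.787 to 0.897 across ORFs, those of S. paradoxus at 0.799 to 0.872, and arrays of different species at 0.581 to 0.702. In a bulk ratio, a change in the share of responding cells and a change in RNA per cell cannot be told apart.

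The species differed at 561 ORFs (13.7% of those tested), of which 247 (6.04%) were higher and 314 (7.68%) lower in S. mikatae. A difference of at least 1 on the log2 scale was reached by 56 of them (1.37%), 28 in each direction. The median absolute difference was 0.50 among the higher ORFs and 0.568 among the lower ones, and the median over all 4090 ORFs was 0.0167. At an unadjusted limma p under 0.05, 532 of the 4090 ORFs were higher and 606 lower in S. mikatae. The responses themselves were called at 1965 ORFs in S. mikatae (48.0%), where 949 (23.2%) rose and 1016 (24.8%) fell. In S. paradoxus they were called at 2000 ORFs (48.9%), where 986 (24.1%) rose and 1014 (24.8%) fell. Without S. paradoxus repeat 1 the number of higher ORFs was 159, the lowest of the 7 counts made without a single array.

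**Figure D1:**
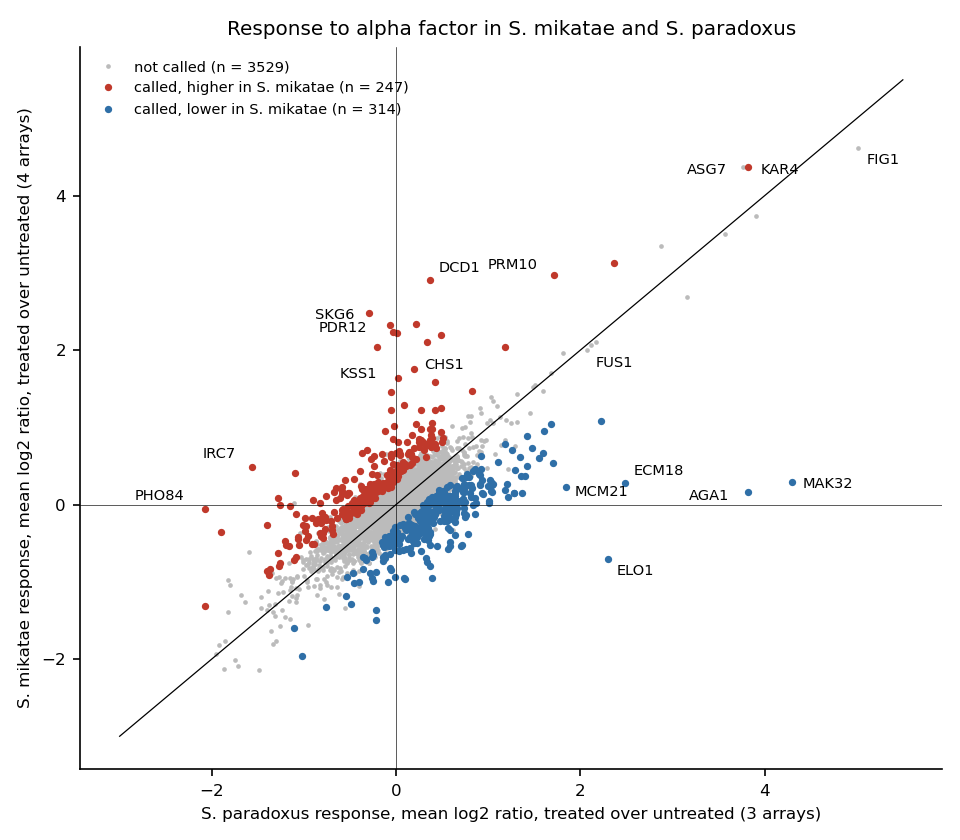
Mean log2 ratio of treated over untreated cells in S. mikatae (vertical, 4 arrays) against S. paradoxus (horizontal, 3 arrays) for the 4090 ORFs, with the diagonal of equal response. Red points (247) were called higher and blue points (314) lower in S. mikatae, and AGA1, MAK32 and ELO1 lie farthest below the diagonal.

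Most called differences lay in ORFs that passed the test in a single species. Of the 247 higher ORFs, 84 fell in S. paradoxus and were not called in S. mikatae, and 72 rose in S. mikatae and were not called in S. paradoxus. A further 37 fell in both species and 34 rose in both, with a higher value in S. mikatae each time, while 19 rose in S. mikatae and fell in S. paradoxus. Of the 314 lower ORFs, 126 rose in S. paradoxus and were not called in S. mikatae, and 78 fell in S. mikatae and were not called in S. paradoxus. In 47 the rise was smaller in S. mikatae, in 18 the fall was deeper there, and 44 fell in S. mikatae and rose in S. paradoxus. Of the ORFs on all 7 arrays, 224 were called higher and in 215 of these the species did not overlap, as was the case in 288 of 291 called lower and in 25.6% of all 3555 such ORFs.

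Among the components of pheromone signalling, the receptor did not differ by the test, while the kinase gene KSS1 had the largest difference. Of 28 members tested, 4 were higher and 5 lower in S. mikatae (32.1% called, median difference −0.0792), against 13.7% over all ORFs. The receptor gene STE2 rose in both species, to 1.97 ± 0.153 in S. mikatae and 1.81 ± 0.128 in S. paradoxus, and its difference was 0.16 ± 0.133 (SE; 95% interval −0.13 to 0.44; limma adjusted p = 0.491). KSS1 (YGR040W), a kinase that shares the mating signal with Fus3 and also serves filamentous growth, was at 1.52, 1.82 and 1.56 on 3 S. mikatae arrays, against −0.02, −0.06 and 0.16 in S. paradoxus. The S. mikatae values all lay above the S. paradoxus ones, by 1.61 ± 0.112 (SE; adjusted p = 8.51e-06; ratio 3.05), and KSS1 averaged 0.73 on the S. cerevisiae arrays. FUS3, the main mating kinase, averaged 1.19 ± 0.105 in S. mikatae and 1.45 ± 0.178 in S. paradoxus, a difference of −0.26 (95% interval −0.50 to −0.02) that was not called.

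AFR1, which acts in receptor regulation and projection formation, was at 3.20, 2.83, 3.43 and 3.08 in S. mikatae, against 2.35, 2.48 and 2.26 in S. paradoxus. Its rise was larger in S. mikatae on every array, by 0.77 ± 0.137 (SE; limma adjusted p = 0.0025). FAR1, the factor of G1 arrest and polarity, was at 1.21, 0.48, 0.92 and 0.07 in S. mikatae, against 1.69, 1.66 and 1.42 in S. paradoxus. The S. mikatae arrays were spread widely but all stayed below the S. paradoxus arrays, and the difference was −0.92 ± 0.222 (SE; adjusted p = 0.0173). GPA1, the G protein alpha subunit that restrains the pathway, averaged 0.89 ± 0.0599 in S. mikatae and 1.42 ± 0.249 in S. paradoxus (difference −0.52; adjusted p = 0.0145). STE4, the beta subunit, averaged −0.27 ± 0.0738 in S. mikatae and −0.70 ± 0.0963 in S. paradoxus (difference 0.43; adjusted p = 0.0171). AKR1, a palmitoyltransferase that restrains the pathway, was lower in S. mikatae (difference −0.61; adjusted p = 0.00239), with −0.45 ± 0.143 on 3 S. mikatae arrays and 0.16 ± 0.0475 in S. paradoxus.

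The calls of FAR1, GPA1 and STE4 were lost without single arrays and under another scaling. FAR1 had an adjusted p of 0.0639 without S. paradoxus repeat 1 and 0.0575 without repeat 2, GPA1 of 0.0611 without S. paradoxus repeat 2 and 0.0605 without repeat 3, and STE4 of 0.0512 without S. paradoxus repeat 1 and 0.0611 without repeat 3; with arrays scaled to a common spread the values were 0.138, 0.173 and 0.065 for FAR1, GPA1 and STE4. The phosphatase gene MSG5 was lower in S. mikatae (difference −0.38; adjusted p = 0.034) and stayed called in only 1 of the 7 fits that left out an array, that without S. mikatae repeat 2. SST2, which speeds the G protein's return to rest, averaged 1.47 ± 0.146 in S. mikatae and 1.59 ± 0.028 in S. paradoxus (difference −0.12; 95% interval −0.34 to 0.10), and STE12 averaged 0.63 ± 0.153 in S. mikatae and 0.47 ± 0.102 in S. paradoxus (difference 0.16; 95% interval −0.07 to 0.39); neither was called. Without S. paradoxus repeat 2 a single member of the list was called lower, and without S. paradoxus repeat 1 or 3 the list had 2 higher members.

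Of the genes expressed in a cells alone, 4 could be compared. All 4 rose in both species, against 23.2% of all ORFs in S. mikatae and 24.1% in S. paradoxus. None was called different by limma. At an unadjusted limma p under 0.05, 1 was higher and 1 lower, against 532 and 606 of all 4090 ORFs. ASG7, an inhibitor of signalling after fusion, was at 4.04, 4.89, 4.63 and 3.91 in S. mikatae, against 3.57, 3.92 and 3.81 in S. paradoxus. The lowest S. mikatae array lay at the level of the highest S. paradoxus array, and the difference of 0.60 ± 0.197 (SE; 95% interval 0.18 to 1.03) had an adjusted p of 0.0595. That p was 0.04 without S. mikatae repeat 1, 0.0176 without repeat 4 and 0.00665 after quantile normalization. In the fits that left out an array it reached 0.2. BAR1, the protease that degrades alpha factor, averaged 2.69 ± 0.162 in S. mikatae and 3.15 ± 0.187 in S. paradoxus (difference −0.46; 95% interval −0.88 to −0.04; adjusted p = 0.141). STE6, the a-factor exporter, averaged 1.43 ± 0.108 in S. mikatae and 1.31 ± 0.0765 in S. paradoxus (difference 0.11; 95% interval −0.17 to 0.40). MFA1, MFA2 and AGA2 had values on S. paradoxus arrays only. Among alpha-cell markers the receptor gene STE3 averaged 0.33 in S. mikatae and 0.50 in S. paradoxus, and the agglutinin gene SAG1 0.09 in S. mikatae and −0.06 in S. paradoxus. The rise of STE3 was called in both species (limma adjusted p = 0.00148 in S. mikatae and 0.000191 in S. paradoxus), and SAG1 was called in neither. Of the 3 tested, 0 were called different between the species by limma and 0 had an unadjusted p under 0.05 for that difference. STE14, the methyltransferase of a-factor processing, was lower, at 0.09 ± 0.146 in S. mikatae against 0.62 ± 0.157 in S. paradoxus (difference −0.53 ± 0.107, SE; limma adjusted p = 0.00518).

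The genes of cell adhesion and fusion differed in both directions. Of 15 members tested 3 were higher (PRM7, PRM10 and SCW11) and 3 lower (AGA1, PRM6 and FUS2; 40% called in all, against 13.7% over all ORFs). In S. mikatae 12 members rose and in S. paradoxus 11, against 23.2% and 24.1% of all ORFs. AGA1 (YNR044W), the wall anchor of the a-agglutinin adhesin, was at 0.58, −0.12, −0.18 and 0.39 in S. mikatae, against 3.74, 4.06 and 3.65 in S. paradoxus. No rise was called in S. mikatae (adjusted p = 0.353) while every S. paradoxus array was at 3.65 or above, and the difference was −3.65 ± 0.214 (SE; 95% interval −4.12 to −3.18; adjusted p = 6.44e-07), a ratio of 0.0796. On the S. cerevisiae arrays AGA1 averaged 3.67.

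FUS2 (YMR232W), a cytoplasmic protein of cell fusion, was at 1.23, 1.17, 1.39 and 0.55 in S. mikatae, against 2.40, 2.28 and 2.01 in S. paradoxus. PRM6 (YML047C), a pheromone-regulated membrane protein, was at 0.97, 0.49, 0.25 and 0.46 in S. mikatae, against 1.52, 1.97 and 1.63 in S. paradoxus. Both rose in both species without overlap between them, and were lower in S. mikatae, with differences of −1.14 ± 0.195 for FUS2 (SE; limma adjusted p = 0.00294) and −1.16 ± 0.188 for PRM6 (SE; adjusted p = 0.00211). The 3 lower members lay on chromosomes XIII and XIV, where 3 of 4 members tested were lower, against 0 of 11 on the other chromosomes. Over all ORFs 17.9% were lower on these chromosomes and 5.98% elsewhere. The pair was picked after the values were seen, so the split is no test of a chromosome effect. The lower count was also 3 with each chromosome centred on its own median, an alternative added after the data were seen. That centring could change differences of this size little, as the median differences were −0.0632 on XIII and −0.0245 on XIV.

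PRM10 (YJL108C), another pheromone-regulated membrane protein, was at 3.14, 2.78, 3.11 and 2.83 in S. mikatae, against 1.51, 1.73 and 1.90 in S. paradoxus. PRM7 (YDL039C) was at −0.39, −0.25, −0.26 and −0.52 in S. mikatae, against −2.05, −2.23 and −1.41 in S. paradoxus. PRM10 thus rose more in S. mikatae and PRM7 fell less, with differences of 1.25 ± 0.126 (SE; adjusted p = 7.06e-05) and 1.54 ± 0.166 (SE; adjusted p = 5.25e-05) by limma. SCW11, a glucanase-like wall protein, averaged 0.53 ± 0.167 in S. mikatae and −0.03 ± 0.124 in S. paradoxus and was higher by 0.56 (adjusted p = 0.00431), against 1.97 on the S. cerevisiae arrays.

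Other strongly induced fusion genes rose in both species and were not called different. FIG1, a membrane protein of calcium influx during mating, was at 4.46, 4.37, 4.98 and 4.69 in S. mikatae, against 4.98, 5.05 and 5.03 in S. paradoxus. The highest S. mikatae array and the lowest S. paradoxus array were both at 4.98, and the difference of −0.40 ± 0.142 (SE; 95% interval −0.70 to −0.09) missed the threshold (limma adjusted p = 0.082). That p was 0.0218 without S. mikatae repeat 3. Over the alternative settings the difference ran from −0.512 to 0.226, so its sign was not stable, and the adjusted p reached 0.801. FUS1, which acts at the contact site, averaged 2.0 ± 0.329 in S. mikatae and 2.07 ± 0.274 in S. paradoxus (difference −0.08; 95% interval −0.46 to 0.30). PRM1, which acts in membrane fusion, averaged 3.50 ± 0.196 in S. mikatae and 3.58 ± 0.419 in S. paradoxus (difference −0.07; 95% interval −0.50 to 0.35). YDR124W, an ORF without a gene name, averaged 3.73 ± 0.454 in S. mikatae and 3.90 ± 0.313 in S. paradoxus (difference −0.17; 95% interval −0.83 to 0.49). The intervals of FUS1, PRM1 and YDR124W include differences in either direction.

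Of 12 nuclear fusion genes tested, KAR4 was higher and BIK1 lower (16.7% called, against 13.7% over all ORFs). KAR4, the transcription factor of karyogamy genes, was at 4.39, 4.23, 4.55 and 4.30 in S. mikatae, against 3.62, 4.07 and 3.76 in S. paradoxus. All S. mikatae arrays lay above all S. paradoxus arrays, by 0.55 ± 0.15 on average (SE; limma adjusted p = 0.0265). The call was lost without S. paradoxus repeat 1 or 3 or S. mikatae repeat 1 or 3 (adjusted p 0.0548 to 0.117). BIK1, a microtubule-binding protein, was lower (difference −0.35; adjusted p = 0.0362) and lost its call without S. paradoxus repeat 2 or 3 or S. mikatae repeat 1 or 3 (adjusted p 0.0637 to 0.137).

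**Figure D2:**
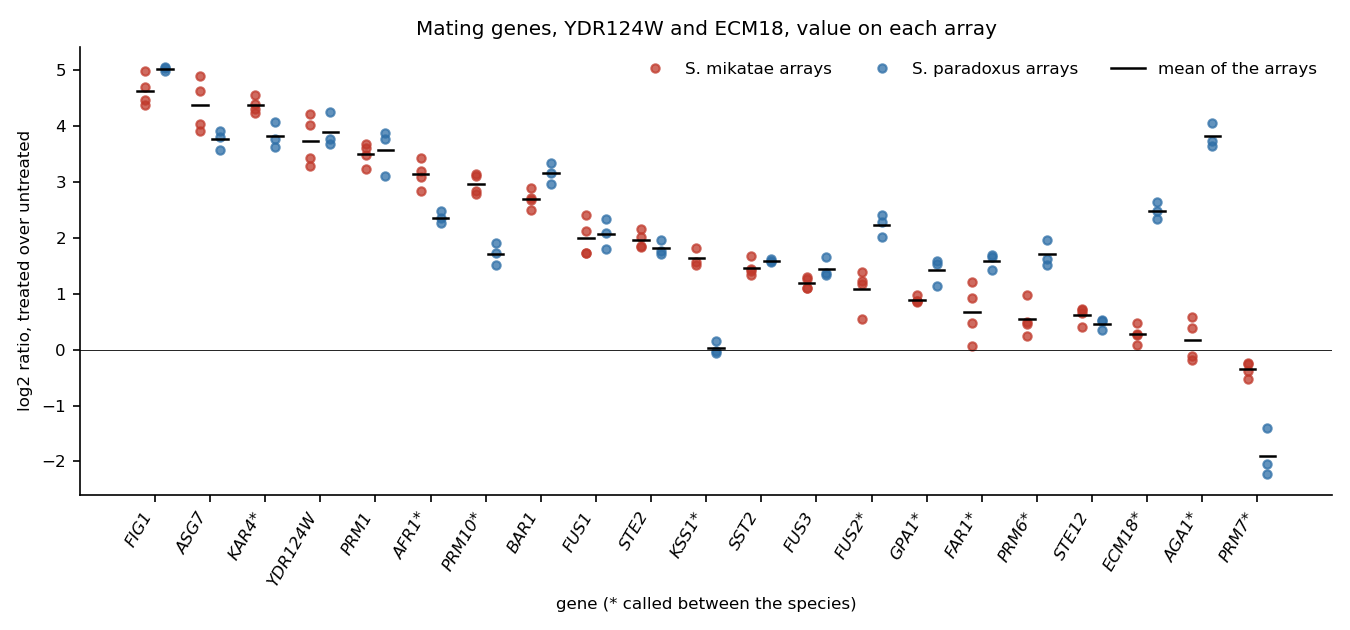
Log2 ratio of treated over untreated cells on each array for mating genes and the neighbouring ORFs YDR124W and ECM18, S. mikatae (red, up to 4 arrays) left of S. paradoxus (blue, 3 arrays), with the mean of the arrays as a bar and an asterisk where the difference was called. AGA1 and ECM18 averaged 0.17 and 0.28 in S. mikatae and 3.82 and 2.48 in S. paradoxus, KSS1 showed the reverse, and FUS1, STE2 and PRM1 overlapped.

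The ORFs with the largest positive differences were mostly not mating genes. SKG6 (YHR149C), a membrane protein of sites of polarized growth, was at 2.27, 3.03, 2.45 and 2.16 in S. mikatae, against −0.24, −0.34 and −0.30 in S. paradoxus. DCD1 (YHR144C), the dCMP deaminase of thymidylate synthesis, was at 2.54, 3.76, 2.77 and 2.57 in S. mikatae, against 0.41, 0.39 and 0.32 in S. paradoxus. Neither response was called in S. paradoxus, and the differences were 2.77 ± 0.178 for SKG6 (SE; limma adjusted p = 2.58e-07; ratio 6.83) and 2.54 ± 0.239 for DCD1 (SE; adjusted p = 1.42e-05; ratio 5.8). On the S. cerevisiae arrays SKG6 averaged 0.26 and DCD1 0.52.

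PDR12 (YPL058C), the exporter of weak organic acids, was at 2.09, 2.66, 2.49 and 2.04 in S. mikatae, against 0.01, −0.15 and −0.07 in S. paradoxus. LAM1 (YHR155W), a sterol-transfer protein of membrane contact sites, was at 2.02, 2.63, 2.22 and 2.08 in S. mikatae, against 0.05, −0.07 and −0.08 in S. paradoxus. PDR12 was higher by 2.39 ± 0.173 (SE; adjusted p = 8.41e-07) and LAM1 by 2.27 ± 0.14 (SE; adjusted p = 1.71e-07) in limma, and neither response was called in S. paradoxus. CHS1, the chitin synthase of wall repair, averaged 1.75 ± 0.408 in S. mikatae and 0.19 ± 0.122 in S. paradoxus and was higher by 1.56 ± 0.18 (SE; limma adjusted p = 0.000194). The other named ORFs that rose in S. mikatae and were not called in S. paradoxus included YAR009C (difference 2.24), the spliceosome core gene PRP8 (2.22), APT2, a relative of adenine phosphoribosyltransferase (2.13), the general transcription factor gene TFA1 (1.76) and CDC23, of the anaphase-promoting complex (1.51). KAE1, of transfer RNA modification, rose in both species, at 2.19 ± 0.129 in S. mikatae and 0.49 ± 0.0807 in S. paradoxus (difference 1.70). S. mikatae repeat 2 was the highest S. mikatae array in 10 of the 15 ORFs with the largest positive differences on all 7 arrays, against 29.1% of all 3555 ORFs; its part in these differences was not tested, and none of the 15 calls was lost without it.

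Several of these ORFs were close together on chromosome VIII. From DCD1 to CDC23 the array had 22 ORFs, of which 16 could be tested. Of these 6 were higher by at least 1 (DCD1, SKG6, RTT107, LAM1, PRP8 and CDC23), against 28 of all 4090 ORFs. Both ends of the stretch were chosen after the values were seen, as ORFs with such differences. The count is therefore no test of grouping. RTT107, a scaffold of DNA repair chosen for naming after its values were seen, averaged 1.28 ± 0.369 in S. mikatae and 0.09 ± 0.164 in S. paradoxus (difference 1.19). The other 10 had differences between −0.416 and 0.411 (median 0.324), 0 were called higher by limma, and MTC6, named after its values were seen, was called lower. In the plot of the chromosome VIII stretch RTT107 lay next to LAM1 and PRP8 next to CDC23, and the ORFs between LAM1 and PRP8 had smaller responses. THP2, the ORF after CDC23, named after its values were seen, was called higher as well (difference 0.68).

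**Figure D3:**
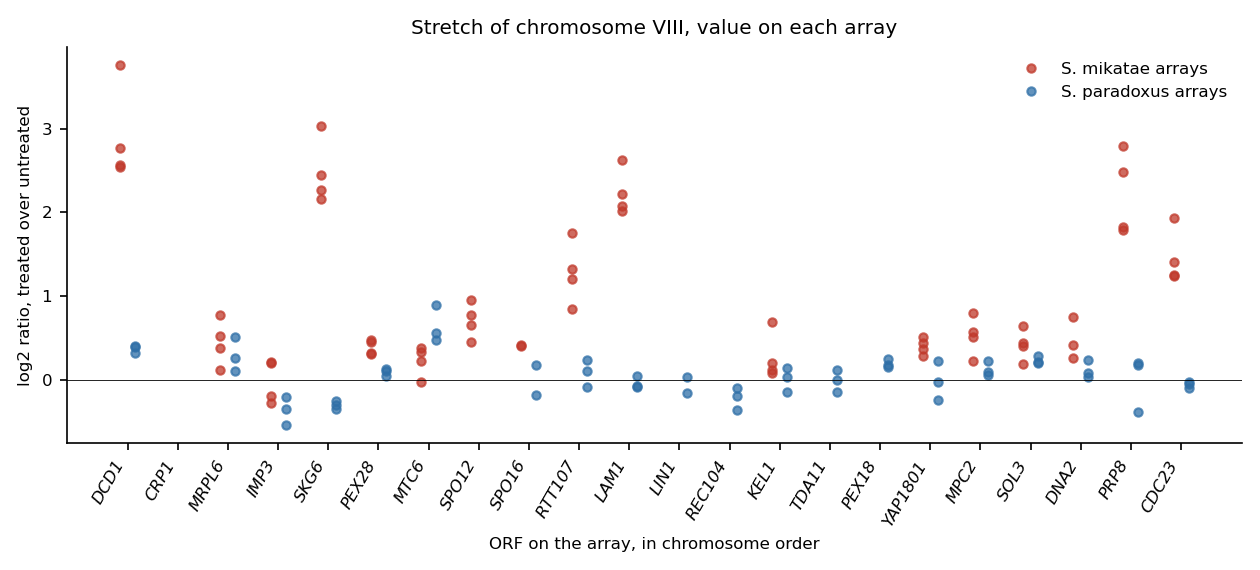
Log2 ratio of treated over untreated cells on each array for the 22 ORFs from DCD1 to CDC23 in chromosome order, evenly spaced, S. mikatae (red) left of S. paradoxus (blue); gaps have no values. In 6 ORFs the S. mikatae arrays lie at 0.852 or above while the S. paradoxus arrays stay at 0.411 or below.

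Other large positive differences came from falls in S. paradoxus. PHO84 (YML123C), the high-affinity phosphate transporter, was at 0.07, −0.25, −0.05 and 0.03 in S. mikatae, against −2.19, −2.01 and −2.03 in S. paradoxus. Its level was near 0 on every S. mikatae array, and the difference was 2.02 ± 0.0976 (SE; limma adjusted p = 2.52e-08), with −1.15 on the S. cerevisiae arrays. IRC7 (YFR055W), a cysteine beta-lyase, was at 0.34, 0.54, 0.43 and 0.66 in S. mikatae, against −1.51, −1.40 and −1.76 in S. paradoxus. It rose in S. mikatae and fell in S. paradoxus, with a difference of 2.05 ± 0.121 (SE; adjusted p = 1.45e-07).

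The largest negative differences included genes outside the mating program whose rise in S. paradoxus was as large as that of mating genes. MAK32 (YCR019W), needed for the stability of double-stranded RNA virus particles, was at 0.15, 0.28 and 0.45 on 3 S. mikatae arrays, against 4.03, 4.57 and 4.30 in S. paradoxus. The difference of −4.0 ± 0.128 (SE; limma adjusted p = 1.12e-09; ratio 0.0624) was the largest of all 4090 ORFs in absolute size, and MAK32 averaged 0.63 on the S. cerevisiae arrays. ELO1 (YJL196C), a fatty acid elongase, was at −0.83, −0.82, −0.69 and −0.47 in S. mikatae, against 2.22, 2.64 and 2.05 in S. paradoxus. It fell in S. mikatae and rose in S. paradoxus, a difference of −3.0 ± 0.145 (SE; adjusted p = 1.45e-07; ratio 0.125), and averaged −0.94 on the S. cerevisiae arrays.

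ECM18 (YDR125C), of unknown function, was at 0.48, 0.27, 0.09 and 0.27 in S. mikatae, against 2.34, 2.64 and 2.48 in S. paradoxus. MCM21 (YDR318W), a kinetochore subunit, was at 0.24, 0.44, −0.18 and 0.38 in S. mikatae, against 1.85, 1.73 and 1.97 in S. paradoxus. Both were lower in S. mikatae, with differences of −2.21 ± 0.15 for ECM18 (SE; limma adjusted p = 4.73e-07) and −1.63 ± 0.141 for MCM21 (SE; adjusted p = 7.48e-06). ECM18 averaged 2.28 and MCM21 0.33 on the S. cerevisiae arrays. ECM18 is the neighbour of YDR124W, which rose in both species. SAD1, of the spliceosome, averaged 0.15 ± 0.202 in S. mikatae and 1.37 ± 0.226 in S. paradoxus (adjusted p = 2.97e-05). SHE4, a chaperone of myosins, averaged 0.15 ± 0.329 in S. mikatae and 1.28 ± 0.338 in S. paradoxus (adjusted p = 0.00314). NCE102, an eisosome protein, and UTR2, a chitin transglycosylase, fell in S. mikatae, NCE102 to −1.37 ± 0.0963 and UTR2 to −1.49 ± 0.101, and averaged −0.22 ± 0.113 and −0.21 ± 0.268 in S. paradoxus, where neither was called (differences −1.15 and −1.28).

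Some ORFs responded in opposite directions. MVD1, of the mevalonate pathway and the neighbour of AGA1, was at −0.58, −0.42, −0.72 and −0.37 in S. mikatae, against 0.75, 0.83 and 0.56 in S. paradoxus. MEX67, the messenger RNA export receptor, was at −0.41, −0.97, −0.39 and −0.39 in S. mikatae, against 0.40, 1.16 and 0.54 in S. paradoxus. Both fell in S. mikatae and rose in S. paradoxus, as did LYS9, of lysine synthesis (−0.95 in S. mikatae and 0.39 in S. paradoxus), and LSC2, a subunit of succinyl-CoA ligase (−0.58 in S. mikatae and 0.56 in S. paradoxus). The opposite pattern was seen in 5 others. YLR179C averaged 0.41 in S. mikatae and −1.09 in S. paradoxus, and the transfer RNA ligase gene TRL1 0.67 in S. mikatae and −0.37 in S. paradoxus. The transcription factor gene STB5 averaged 0.32 in S. mikatae and −0.55 in S. paradoxus, and the kinase gene TDA1 0.43 in S. mikatae and −0.39 in S. paradoxus. DAL7, a malate synthase, averaged 0.23 in S. mikatae and −0.59 in S. paradoxus. The limma adjusted p of these 9 differences were at most 0.00247.

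Of 23 G2/M genes tested 4 were lower in S. mikatae and 0 higher by limma (17.4% called, against 13.7% over all ORFs). Their median difference was −0.167, and at an unadjusted limma p under 0.05 6 were lower and 0 higher. In S. mikatae 8 fell and in S. paradoxus 3, against 24.8% of all ORFs in each species. In the 7 fits that left out an array 2 to 3 members were lower. CDC5, the polo kinase of mitosis, was at −0.04, −0.60, −0.50 and −0.37 in S. mikatae, against 0.39, 1.21 and 0.74 in S. paradoxus. It fell in S. mikatae and rose in S. paradoxus (difference −1.16 ± 0.181, SE; adjusted p = 0.00168). CLB2, the main mitotic cyclin, was at −0.59, −0.70, −0.62 and −0.67 in S. mikatae, against 0.08, −0.03 and −0.24 in S. paradoxus. The ranges did not overlap and the difference was −0.58 ± 0.117 (SE; adjusted p = 0.00518). The other 2 lower members, CLB4 (−0.33) and ALK1 (−0.37), lost their calls without S. paradoxus repeat 2 or 3 or any 1 of the S. mikatae arrays (adjusted p 0.0588 to 0.149), ALK1 also without S. paradoxus repeat 1 (0.0979).

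Of 34 Start and G1/S genes tested 5 were higher and 2 lower (20.6% called, against 13.7% over all ORFs). In S. mikatae 14 fell and in S. paradoxus 16, against 24.8% of all ORFs in each species. CLN1, a G1 cyclin, fell in S. paradoxus and not by the test in S. mikatae, at −0.19 ± 0.054 in S. mikatae and −0.85 ± 0.235 in S. paradoxus (difference 0.66 ± 0.14, SE; limma adjusted p = 0.00661). RFA2, a subunit of the single-stranded DNA binding complex, was lower, at −0.40 ± 0.174 in S. mikatae against 0.19 ± 0.107 in S. paradoxus (adjusted p = 0.00661). The second lower member was ELO1, and without S. paradoxus repeat 3 only 2 members were higher. PCL2, a cyclin of the kinase Pho85, rose in both species, at 3.35 ± 0.617 in S. mikatae and 2.87 ± 0.0837 in S. paradoxus (difference 0.48; 95% interval −0.07 to 1.02; not called). CLN2 had values on 2 S. paradoxus arrays only.

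Among 4 histone genes tested HTB1 (histone H2B) was lower, at −0.75, −0.79, −1.05 and −0.94 in S. mikatae, against −0.03, −0.38 and −0.43 in S. paradoxus. It fell in both species and further in S. mikatae (difference −0.60 ± 0.112, SE; limma adjusted p = 0.00328), while HHT1 (histone H3) averaged −1.77 ± 0.0545 in S. mikatae and −1.85 ± 0.0786 in S. paradoxus (difference 0.09; 95% interval −0.16 to 0.33). Histone genes have close copies, and the cross-hybridisation between them was not measured.

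Most ribosome assembly genes fell in both species, while 24.8% of all ORFs fell in each species. Of 49 genes of large subunit assembly 44 fell in S. mikatae and 44 in S. paradoxus, with median levels of −0.585 in S. mikatae and −0.806 in S. paradoxus, and 7 were called higher and 2 lower in S. mikatae (18.4% called, against 13.7% over all ORFs; median difference 0.147). Of 50 genes of the small subunit processome 40 fell in S. mikatae and 41 in S. paradoxus, with medians of −0.419 in S. mikatae and −0.585 in S. paradoxus, and 4 were higher and 1 lower (10.0% called; median difference 0.133). RRS1, an assembly factor of the large subunit, averaged −0.86 ± 0.15 in S. mikatae and −1.41 ± 0.173 in S. paradoxus (difference 0.54 ± 0.113, SE; limma adjusted p = 0.00601), and RPF1 −0.53 ± 0.149 in S. mikatae and −1.06 ± 0.195 in S. paradoxus (adjusted p = 0.00812). Without S. paradoxus repeat 2 the higher counts were 3 for the large subunit and 0 for the small subunit, and RRS1 (0.0601) and RPF1 (0.0992) missed the threshold when arrays were scaled to a common spread. NOP12 went the other way, at −1.33 ± 0.214 in S. mikatae against −0.76 ± 0.0617 in S. paradoxus (difference −0.57; adjusted p = 0.00371).

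Of 28 genes of RNA polymerases I and III and their factors, 2 were higher and 3 lower (17.9% called, against 13.7% over all ORFs). The higher members were the polymerase III subunit genes RPC31 (difference 0.515) and RPC34 (0.472), with a higher count of 0 without S. paradoxus repeat 1 or 2 or S. mikatae repeat 2. The lower members were BDP1 (of TFIIIB), RRN3 and RRN9 (of polymerase I initiation). RRN3 was at 0.07, 0.07, 0.06 and 0.11 in S. mikatae, against 0.68, 0.76 and 0.75 in S. paradoxus. All S. paradoxus arrays lay well above all S. mikatae arrays (difference −0.65 ± 0.105, SE; limma adjusted p = 0.00116). Of 133 cytosolic ribosomal protein genes on the array 54 were tested. By limma 1 was higher and 0 lower (1.85% called), and 0 were higher in 5 of the 7 fits that left out an array. At an unadjusted limma p under 0.05 2 were higher and 0 lower. The medians were 0.00673 in S. mikatae and −0.00234 in S. paradoxus. A further 17 had at least 2 values in S. paradoxus only and 12 in S. mikatae only.

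Sterol synthesis genes were the list with the lowest median difference among those with at least 10 members tested. Of 25 tested 8 were lower and 0 higher in S. mikatae by limma (32.0% called, against 13.7% over all ORFs). Their median difference was −0.267, and at an unadjusted limma p under 0.05 12 were lower and 1 higher. In this list 6 rose and 9 fell in S. mikatae, while 13 rose and 5 fell in S. paradoxus. Over all ORFs 23.2% rose and 24.8% fell in S. mikatae, and 24.1% rose and 24.8% fell in S. paradoxus. ERG3, the C-5 desaturase, was at −1.73, −2.31, −2.05 and −1.73 in S. mikatae, against −0.98, −1.19 and −0.91 in S. paradoxus. It fell in both species and further in S. mikatae (difference −0.93 ± 0.135, SE; limma adjusted p = 0.000556). ECM22, a transcription factor of sterol genes, fell to −0.30 ± 0.108 in S. mikatae and rose to 0.56 ± 0.237 in S. paradoxus (difference −0.87; adjusted p = 0.000964). ERG6, the sterol methyltransferase, and ERG8, of the mevalonate pathway, averaged −0.0034 and −0.04 in S. mikatae, where neither passed the test, and rose to 0.65 ± 0.316 and 0.53 ± 0.191 in S. paradoxus. On chromosomes XIII and XIV 5 of 7 members tested were lower, MVD1, ERG6 and ERG8 among them, against 3 of 18 elsewhere. Over all ORFs 17.9% were lower on these chromosomes and 5.98% elsewhere. The pair was picked after the values were seen, so the split is no test of a chromosome effect. The lower count was also 8 with each chromosome centred on its own median, which could change it little. Without chromosomes XIII and XIV the lower count was 2, a drop largely set by leaving those 5 members out. The lower count was 5 without S. paradoxus repeat 1.

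Of 27 chaperone genes tested, 16 rose in S. mikatae and 16 in S. paradoxus, against 23.2% and 24.1% of all ORFs. At an unadjusted limma p under 0.05 7 were lower and 2 higher. By adjusted p 4 were lower and 0 higher in S. mikatae (14.8% called, near the 13.7% over all ORFs). The 4 were HSC82 (an Hsp90), SIS1 and YDJ1 (Hsp40 co-chaperones) and SSE1 (an exchange factor of Hsp70). YDJ1 was at 0.58, 0.47, 0.37 and 0.78 in S. mikatae, against 1.01, 1.09 and 1.22 in S. paradoxus. It rose in both species and less in S. mikatae (difference −0.56 ± 0.113, SE; limma adjusted p = 0.00534), as did HSC82, at 0.62 ± 0.218 in S. mikatae against 1.34 ± 0.0161 in S. paradoxus (adjusted p = 0.0054), whose close copy HSP82 could share its signal. Of the members on chromosomes XIII and XIV 3 of 3 were lower, against 1 of 24 elsewhere. Over all ORFs 17.9% were lower on these chromosomes and 5.98% elsewhere. The pair was picked after the values were seen, so the split is no test of a chromosome effect. The lower count was also 4 with each chromosome centred on its own median, which could change it little. It was 1 without chromosomes XIII and XIV, a drop set by leaving those 3 members out. Without S. paradoxus repeat 3 the count was 2, and SSE1 (0.0627) and SIS1 (0.0948) no longer had an adjusted p under 0.05. RPN4, the transcription factor of proteasome genes, was lower, at −0.16 ± 0.104 in S. mikatae against 0.64 ± 0.15 in S. paradoxus (adjusted p = 0.000302). Of 33 proteasome genes 25 rose in S. mikatae and 27 in S. paradoxus, against 23.2% and 24.1% of all ORFs.

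Of 14 genes of gluconeogenesis and the glyoxylate cycle 4 were higher and 0 lower by limma (28.6% called, against 13.7% over all ORFs). Their median difference was 0.182, and at an unadjusted limma p under 0.05 5 were higher and 0 lower in S. mikatae. In S. mikatae 1 member fell, and in S. paradoxus 6, against 24.8% of all ORFs in each species. ICL1, isocitrate lyase, was at −0.07, −0.02, 0.03 and 0.07 in S. mikatae, against −1.71, −1.32 and −0.76 in S. paradoxus. Its values clustered at 0 in S. mikatae and were low but spread in S. paradoxus (difference 1.26 ± 0.165, SE; limma adjusted p = 0.000232; 0.23 on the S. cerevisiae arrays). Without S. paradoxus repeat 1, S. mikatae repeat 3 or S. mikatae repeat 4 the count was 2, and ICL1 and DAL7 kept their calls without any single array.

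Of 24 phosphate genes 7 were higher and 2 lower in S. mikatae at an unadjusted limma p under 0.05. By adjusted p 4 were higher and 0 lower (16.7% called, against 13.7% over all ORFs). In S. mikatae 6 members rose and 7 fell, and in S. paradoxus 2 rose and 14 fell. Over all ORFs 23.2% rose and 24.8% fell in S. mikatae, and 24.1% rose and 24.8% fell in S. paradoxus. Besides PHO84 the members called higher were GPP2, a glycerol phosphatase (0.33 ± 0.25 in S. mikatae and −0.46 ± 0.201 in S. paradoxus), and the polyphosphate polymerase genes VTC4 (0.26 ± 0.082 in S. mikatae and −0.28 ± 0.0861 in S. paradoxus) and VTC1 (0.06 ± 0.0289 in S. mikatae and −0.39 ± 0.263 in S. paradoxus). VTC1 lost its call without S. paradoxus repeat 1 or 2 or S. mikatae repeat 1 or 2 (adjusted p up to 0.129). GPP2 and VTC4 rose in S. mikatae and fell in S. paradoxus, with limma adjusted p of 0.00392 and 0.00407.

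Of 49 amino acid synthesis genes 7 were higher and 2 lower (18.4% called, against 13.7% over all ORFs). LYS9 was at −1.23, −0.68, −1.13 and −0.76 in S. mikatae, against 0.18, 0.37 and 0.62 in S. paradoxus. It was lower in S. mikatae (difference −1.34 ± 0.152, SE; limma adjusted p = 0.000174), whereas LYS12 of the same pathway was higher, at 0.52 ± 0.135 in S. mikatae against 0.09 ± 0.0927 in S. paradoxus (adjusted p = 0.00887, and 0.0604 with each chromosome centred on its own median). Without S. paradoxus repeat 1 the list had 4 higher members, and without that array or S. mikatae repeat 2 or 3 it had 1 lower member.

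Metal genes differed in both directions, with 3 of 30 higher and 5 lower (26.7% called, against 13.7% over all ORFs). The high-affinity iron uptake pair FTR1 (permease) and FET3 (oxidase) was lower, at −0.45 ± 0.192 and −0.59 ± 0.204 in S. mikatae against 0.35 ± 0.328 and 0.07 ± 0.0901 in S. paradoxus (limma adjusted p = 0.00509 and 0.00131). SMF1, a manganese transporter, and CUP1-1, a metallothionein with near-identical copies, were lower (differences −0.64 and −0.99), CUP1-1 with an adjusted p of 0.0533 under a replicate block. CTR1, the copper transporter, fell in both species and less in S. mikatae (−1.31 ± 0.224 in S. mikatae against −2.07 ± 0.265 in S. paradoxus), and ZRT1, the zinc transporter, was higher by 1.14 (adjusted p = 0.0115). ZRT1 missed the threshold without S. paradoxus repeat 1 (0.054), where the list had 1 higher member, and CTR1 with arrays scaled to a common spread (0.107).

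Cell wall genes were called at 15 of 39, 8 higher and 7 lower (38.5% called, against 13.7% over all ORFs). Their median difference was −0.091. Beside CHS1 the higher members included CWP1, a wall mannoprotein, at 1.05 ± 0.092 in S. mikatae and 0.39 ± 0.211 in S. paradoxus. Beside UTR2 the lower members included SCW4, a glucanase-like protein, at −1.0 ± 0.22 in S. mikatae and −0.08 ± 0.119 in S. paradoxus, and ROM2, an exchange factor of the integrity pathway's Rho1, at −0.19 ± 0.34 in S. mikatae and 0.63 ± 0.192 in S. paradoxus. The limma adjusted p were 0.00508, 0.000627 and 0.00914 for CWP1, SCW4 and ROM2. In the 7 fits that left out an array the higher count was 5 to 7, with 5 without S. paradoxus repeat 2 or 3 or S. mikatae repeat 1 or 3.

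**Figure D4:**
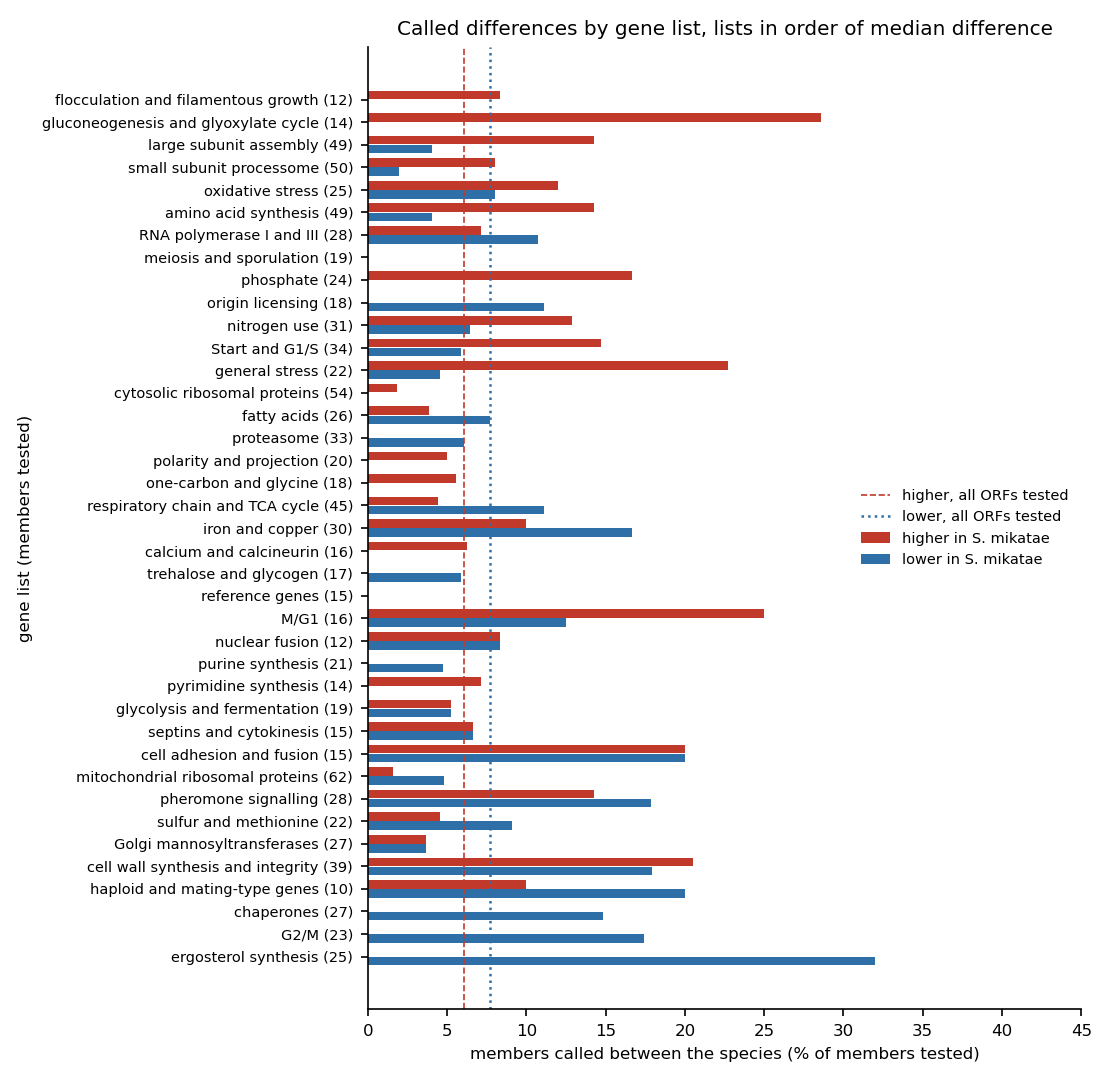
Percent of tested members called higher (red) and lower (blue) in S. mikatae for each gene list with at least 10 members tested, members tested in brackets, ordered by median difference; lines mark 6.04% higher and 7.68% lower over all ORFs. Ergosterol synthesis has 8 of 25 members lower and none higher, and gluconeogenesis 4 of 14 higher and none lower.

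Of 15 reference genes tested, 0 were called by limma, and at an unadjusted p under 0.05 2 were higher and 1 lower. ACT1 averaged 0.14 ± 0.0588 in S. mikatae and −0.01 ± 0.209 in S. paradoxus (difference 0.15; 95% interval −0.08 to 0.38; limma adjusted p = 0.396). The members of that list had differences between −0.291 and 0.371, and 1 was called when only the 7 arrays were fitted. Of 19 meiosis and sporulation genes, 0 were called either, with a median difference of 0.109. At an unadjusted limma p under 0.05 5 were higher and 0 lower. In S. mikatae 8 members rose and 3 fell, and in S. paradoxus 2 rose and 4 fell. Over all ORFs 23.2% rose and 24.8% fell in S. mikatae, and 24.1% rose and 24.8% fell in S. paradoxus. Whether the cultures held diploid cells was not tested.

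The called ORFs were spread unevenly over the chromosomes, as named in S. cerevisiae. On chromosomes XIII and XIV 104 of 580 ORFs tested (17.9%) were lower in S. mikatae and 20 (3.45%) higher, against 210 (5.98%) lower and 227 (6.47%) higher of 3510 ORFs elsewhere. Median differences were −0.051 on the 2 chromosomes and 0.0259 elsewhere. The pair was picked after the values were seen. Chromosome VIII had 28 of 198 higher (14.1%), 8 of them by at least 1, and chromosome IX had 19 of 159 higher (11.9%) and 2 lower. With each chromosome centred on its own median 547 ORFs were called, 246 higher and 301 lower. The order of genes in the 2 species was not used here.

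**Figure D5:**
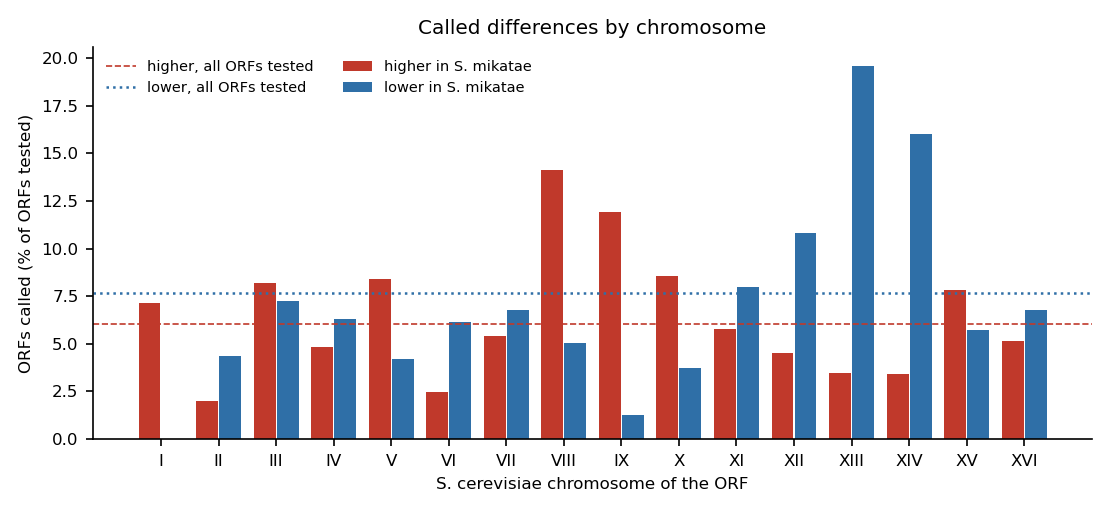
Percent of ORFs tested on each S. cerevisiae chromosome that were called higher (red) or lower (blue) in S. mikatae; lines mark 6.04% higher and 7.68% lower over all ORFs. The lower share reaches 19.6% on chromosome XIII and 16.0% on XIV, and the higher share 14.1% on VIII.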

How the data were processed

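The deposited values, log2 ratios of channel 1 (treated cells) over channel 2 (untreated cells) of 2-colour hybridisations, were used as the authors' processed table held them, 1 value per ORF and array. Per the labels' protocols, amino-allyl labelled cDNA was hybridised to S. cerevisiae cDNA arrays. How missing values were set, the background correction, the normalization and the log base were not given in the sources used; the base and direction were read from the values and channel labels. Of 6132 ORFs, all but 481 were named through the RefSeq table of S. cerevisiae.

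Each of the 13 arrays was centred on its median and 4 group means were fitted with limma 3.58.1 (R 4.3.3; statmod 1.5.0), with Benjamini-Hochberg adjustment over the 4090 ORFs. Intervals are 95% and come from the same fit. On simulated data of 4090 ORFs the test recovered 57 of 100 changes of 0.5 and 93 of 100 changes of 1 (log2), and 1.96% of the calls were false. There the unchanged ORFs had equal means in the 2 species, and noise was drawn independently for each ORF and array. Errors shared across an array were absent, so the share of false calls among the 561 was not measured. Signal intensities were not used, and precision is limited by how many arrays there are.

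The ORFs compared and the gene lists were chosen with earlier results of these data known. Genes named were the 15 highest and 15 lowest called differences on all 7 arrays without overlap, the 6 largest in each direction with opposite called responses, up to 6 called members with the largest differences per list described, and a set of mating and reference genes; any other is said to be chosen after its values were seen. Alternatives covered centring, scaling, quantile normalization, missing values, arrays fitted, weights, the variance prior, a threshold on size, a replicate block, and fits without each array in turn. Not every gene that met the naming rule is reported here.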

Additional observations from a re-analysis of the deposited data

Results flagged for a closer look

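The comparison of the species called 561 ORFs by limma, and the ORFs that passed the test in opposite directions in the species are given here with the S. mikatae minus S. paradoxus difference on the log2 scale. Those that rose in S. mikatae and fell in S. paradoxus were led by IRC7 (2.05), YLR179C (1.5), TRL1 (1.03), STB5 (0.874), TDA1 (0.824) and DAL7 (0.819). Those that fell in S. mikatae and rose in S. paradoxus were led by ELO1 (−3.0), LYS9 (−1.34), MVD1 (−1.24), MEX67 (−1.24), CDC5 (−1.16) and LSC2 (−1.14).

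In 8 of the 155 named genes with 4 S. mikatae values, the highest or lowest S. mikatae array stood far from the others by Dixon's test; chance alone flags about 1 group in 20. The S. paradoxus group, with 3 arrays, was not tested in this way. S. mikatae repeat 2 stood high in MET14, at 0.0361 against −1.03 to −0.941 on the other S. mikatae arrays, and in MSG5, at 0.657 against 0.274 to 0.322. It stood low in MEX67, at −0.966 against −0.407 to −0.386. S. mikatae repeat 1 stood low in LSC2, at −0.8 against −0.508 to −0.497, and high in ACT1, at 0.23 against 0.103 to 0.12, and in HCA4, at −0.301 against −0.45 to −0.429. S. mikatae repeat 4 stood high in GPA1, at 0.983 against 0.854 to 0.875, and S. mikatae repeat 3 low in STB5, at 0.199 against 0.351 to 0.368. MET14, of sulfate assimilation, averaged −0.74 ± 0.521 in S. mikatae and 0.34 ± 0.607 in S. paradoxus, with overlapping ranges (difference −1.08; limma adjusted p = 0.0424), and its call was lost in 5 of the 7 fits that left out an array.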

How the results depend on the processing

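Under 9 other settings the number of ORFs called by limma stayed within 1.5 times 561: 563 without centring, 440 with arrays scaled to a common spread, 459 after quantile normalization, 528 with ORFs on all 7 arrays only, 435 with the 7 arrays alone, 770 with array weights, 563 with a robust prior, 449 with a replicate block and 547 with each chromosome centred on its median. Of the 561, 401 to 559 were called in the same direction in each of these, and none in the opposite one. A threshold of 1 on the log2 scale left 56 differences (28 higher, 28 lower), 125 S. mikatae responses (61 rises, 64 falls) and 156 S. paradoxus responses (71 rises, 85 falls). Without chromosomes XIII and XIV 206 ORFs were lower and 219 higher. That setting left out 104 lower and 20 higher ORFs, so the change was largely set in advance. It and the centring per chromosome were chosen after seeing the data. In the fits that left out an array, 379 to 528 ORFs were called, 159 to 224 higher and 220 to 311 lower, with 1669 to 1937 S. mikatae and 1480 to 2049 S. paradoxus responses. Repeat numbers did not pair the samples: same-numbered arrays deviated with correlations of 0.00489, −0.106 and −0.262, and the replicate block gave 182 higher and 267 lower. Of 148 named genes called, 57 lost their call without at least 1 array; of the 40 with differences of at least 1, these were MET14 and ZRT1.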

Other observations

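Among lists not described above, general stress genes had 5 of 22 members higher and 1 lower in S. mikatae by limma (27.3% called, against 13.7% over all ORFs), and 3 higher without S. paradoxus repeat 3. GRE3, an aldose reductase, was at 0.81, 0.70, 1.09 and 1.30 in S. mikatae, against 0.39, 0.30 and 0.11 in S. paradoxus (difference 0.71 ± 0.129, SE; adjusted p = 0.00295). PRB1, a vacuolar protease, averaged 1.47 ± 0.213 in S. mikatae and 0.83 ± 0.0588 in S. paradoxus (adjusted p = 0.00527). MSC1 was the lower member, at −0.08 ± 0.151 in S. mikatae and 0.58 ± 0.225 in S. paradoxus (adjusted p = 0.00337). Of 45 genes of the respiratory chain and TCA cycle 2 were higher and 5 lower (15.6% called, near the 13.7% over all ORFs). The higher count was 0 without S. paradoxus repeat 2 or S. mikatae repeat 3, and the lower count 3 without S. paradoxus repeat 1 or 3 or S. mikatae repeat 1 or 4. NDE1, an external NADH dehydrogenase of mitochondria, was at −0.76, −1.40, −0.92 and −0.68 in S. mikatae, against 0.02, −0.17 and 0.12 in S. paradoxus (difference −0.93 ± 0.159, SE; limma adjusted p = 0.00294). Of 25 oxidative stress genes 3 were higher and 2 lower (20% called, against 13.7% over all ORFs), with 0 lower without S. paradoxus repeat 2 or 3 or S. mikatae repeat 3. OYE2, an NADPH oxidoreductase, averaged 0.70 ± 0.416 in S. mikatae and −0.31 ± 0.154 in S. paradoxus (difference 1.02; limma adjusted p = 0.00251).

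Of the 6132 ORFs, 658 (10.7%) had at least 2 values in S. paradoxus only and 277 (4.52%) in S. mikatae only, and these were not compared between the species. Mating genes measured in S. paradoxus only included the nuclear fusion gene KAR5 (mean log2 ratio 2.89), the adhesin gene FIG2 (2.82), the kinesin partner gene CIK1 (2.71), AGA2, the binding subunit of the a-agglutinin (2.53), and the a-factor genes MFA1 (1.79) and MFA2 (1.3). The highest S. paradoxus levels without S. mikatae values were those of YCL076W, at 3.99, 4.59 and 3.81, and YCL075W, at 4.01, 4.34 and 3.37, which averaged 0.873 and 0.645 on the S. cerevisiae arrays. Measured in S. mikatae only were the hexose transporter genes HXT1 (−1.78) and HXT4 (−1.61) and TEC1, a transcription factor of filamentous growth (1.33). These genes were picked after their values were seen.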
